A study of Homo sapiens with 8 samples.

Results

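Cytosolic ribosomal protein genes encode the protein subunits of the ribosomes that translate nuclear mRNAs. They were taken as the protein-coding RefSeq genes whose symbol is RPL or RPS plus a number, with an optional A, X or L suffix, together with RPLP0, RPLP1, RPLP2 and RPSA. Of 102 protein-coding symbols that start with RPL or RPS, 10 RPS6K kinase genes and 11 others such as RPL36AL, RPL7L1 and the readthrough locus RPS10-NUDT3 fell outside the rule. That left 81 of 19974 protein-coding genes, 49 of the large subunit and 32 of the small subunit. Peaks of open chromatin within 1 kb of either annotated end of these genes were compared for presence, width and rank of area.

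The cells were NCI-H295R, an established human adrenocortical carcinoma line, assayed by ATAC-seq, in which the transposase Tn5 inserts adapters where chromatin is open. EZH2i cells received 62 µM EPZ-6438, an inhibitor of the histone methyltransferase EZH2, for 96 h. CBPi cells received 26 µM PRI-724, which blocks the binding of β-catenin to the coactivator CBP, for 96 h. FSK cells received 10 µM forskolin, an activator of adenylyl cyclase, during 48 h that followed 48 h in vehicle. Vehicle cells had DMSO for 96 h. Each of the 4 groups had 2 libraries of 50000 cells and 1 deposited peak list, so no value has a replicate error and no test between groups was possible. Read depth is unknown, and all 3 treatments were set against the same vehicle list. In bulk chromatin a site open in fewer cells and a site less open in each cell cannot be told apart.

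The lists held 41086 peaks with EZH2i, 47161 with CBPi, 51095 with FSK and 61016 with vehicle, so the vehicle list was the longest. Of 12 adrenocortical marker genes, 8 had a gene-end peak with EZH2i, 8 with CBPi, 10 with FSK and 9 with vehicle. NR5A1, STAR, CYP11A1 and CYP17A1 had one in each list, and HSD3B2 and CYP11B1 had none in any. Of 8 fibroblast, 8 endothelial, 8 immune and 8 chromaffin markers, no list had more than 3 of any 1 set. Their part in the values below was not tested.

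Ribosomal protein genes are transcribed at high rates in growing cells, and their mRNAs are translated together. Most begin with a cytosine followed by a run of pyrimidines, the terminal oligopyrimidine (TOP) tract, through which mTORC1 and the RNA-binding protein LARP1 control translation. Their promoters are compact, often lack a TATA box, and are bound in many cell types by ETS factors such as GABP and by SP1 and YY1. In adrenocortical cells, cAMP is the second messenger of ACTH, and forskolin raises it without the hormone.

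The sequence at the annotated start is shown first, because it is what most of these promoters share and the symbol rule did not use it. The RefSeq promoter table (GRCh38.p14) held 64 of the 81 genes. In the lines that follow, 10 bases before and 20 bases from the annotated start are printed on the strand of the gene. Capitals mark the pyrimidine run that opens the transcript, where there is a C at the start followed by at least 4 pyrimidines. The genes are those of high area rank or large width, those whose peak was missing from a list, and those with large width ratios.
RPLP1: ggcgcgagagCCCCTTTCCTCagctgccgc
RPL35: cgcctacttcCTCTTTCCCTCggagcgggc
RPL12: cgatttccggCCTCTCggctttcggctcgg
RPS21: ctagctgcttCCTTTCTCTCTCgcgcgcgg
RPL37A: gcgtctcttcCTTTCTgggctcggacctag
RPL35A: gggcctcgtcCTTCTCTTaccgccatcttg
RPL34: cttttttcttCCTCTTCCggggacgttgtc
RPS10: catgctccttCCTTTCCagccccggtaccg
RPL15: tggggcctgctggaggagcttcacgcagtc
RPS29: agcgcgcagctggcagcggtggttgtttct
RPL3: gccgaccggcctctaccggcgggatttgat
RPL19: tctccccttcgcagataatgggaggagccg
The longest of these runs, at RPS21, covers 12 bases, and the shortest, at RPL12 and RPL37A, cover 6. Neither RPL15, RPS29, RPL3 nor RPL19 has such a run at the annotated base. Where the table lists several starts for a gene, as for 10 of the 64, the first was used, and a tract shifted from the listed base is not counted.

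A TOP start stood at 42 of the 64 annotated starts of ribosomal protein genes (65.6%, Wilson 95% interval 53.4 to 76.1), against 4.60% of all 15812 promoters. The median vehicle width was 1027 bp at the 42 genes with a TOP start and 1082 bp at the 22 without. The median vehicle area rank, defined below, was 29.7 and 32.9 for the ranked genes among them. With any listed start, RPL10, RPL11, RPL13 and RPS27A were added, for 46 of 64 (71.9%), against 6.24% of all promoters. This tract was looked for after the data had been seen.

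Fixed letter motifs were searched on both strands of the same 300 bases, 250 before and 50 after the start. The ETS motif of GABP, CCGGAAG, was in 22 of 64 ribosomal protein promoters (34.4%, interval 23.9 to 46.6), against 14.2% of all promoters and 18.4% of those with a vehicle gene-end peak. The BANP motif CTCGCGAG was in 6 (9.38%, against 1.53% of all promoters), and the YY1 motif AAGATGGC in 6 (9.38%, against 3.91%). The GC box of SP and KLF factors, GGGCGG, was in 36 (56.3%, interval 44.1 to 67.7, against 58.5%), and the TATA box letters TATAAA in 6 (9.38%, against 9.64%). Among promoters with a vehicle gene-end peak the shares were 2.02% for BANP, 5.04% for YY1, 70.0% for the GC box and 5.82% for the TATA letters. The members' shares of the ETS and BANP letters were above both backgrounds, and their share of the GC box was below that of promoters with a peak.

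Of the motifs tied to the treatments, the cAMP core was common and the others were rare. The full cAMP response element TGACGTCA was in 3 of 64 (4.69%, against 2.59% of all promoters) and its core TGACG, which lies inside the full element, in 28 (43.8%, interval 32.3 to 55.9, against 29.4% of all promoters and 34.2% of those with a vehicle peak). The TCF/LEF motif CTTTGAT, through which β-catenin acts, was in 1 (1.56%, against 1.95%), and the SF1 motif CAAGGTCA of steroidogenic genes in 0, against 1.03%. NRF1 (GCGCATGC) and the E-box CACGTG were in 3 each, 4.69% of the members, against 4.26% and 8.87% of all promoters. The median GC content of the 64 windows was 59.3%, against 62.7% for all promoters. A match is a run of letters and was not tested for binding.

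These matches are set in their promoters next, for the highest-ranked gene in the promoter table, the pair of genes whose peak was missing from both the EZH2i and the FSK list, and the genes with the largest narrowing and widening. Each line holds the 300 bases on the strand of the gene; capitals mark motif matches other than the short cAMP core, and the TOP run. They lie at chr3:23916295-23916594 (RPL15), chr20:62386853-62387152 (RPS21), chr17:39200033-39200332 (RPL19), chr4:108620326-108620625 (RPL34) and chr6:34426020-34426319 on the minus strand (RPS10), all in GRCh38.p14.
RPL15: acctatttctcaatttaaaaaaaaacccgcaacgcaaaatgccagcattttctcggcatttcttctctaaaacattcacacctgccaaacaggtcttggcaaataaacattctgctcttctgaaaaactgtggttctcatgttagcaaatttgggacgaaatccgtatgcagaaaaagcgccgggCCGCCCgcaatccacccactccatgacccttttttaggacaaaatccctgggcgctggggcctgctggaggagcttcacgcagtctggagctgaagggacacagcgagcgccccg
RPS21: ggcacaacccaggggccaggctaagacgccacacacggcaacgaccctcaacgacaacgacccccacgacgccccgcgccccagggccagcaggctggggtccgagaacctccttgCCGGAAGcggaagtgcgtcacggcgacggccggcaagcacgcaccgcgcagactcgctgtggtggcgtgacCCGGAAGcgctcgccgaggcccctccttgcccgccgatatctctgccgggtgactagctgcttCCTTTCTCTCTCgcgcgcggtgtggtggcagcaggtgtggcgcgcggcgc
RPL19: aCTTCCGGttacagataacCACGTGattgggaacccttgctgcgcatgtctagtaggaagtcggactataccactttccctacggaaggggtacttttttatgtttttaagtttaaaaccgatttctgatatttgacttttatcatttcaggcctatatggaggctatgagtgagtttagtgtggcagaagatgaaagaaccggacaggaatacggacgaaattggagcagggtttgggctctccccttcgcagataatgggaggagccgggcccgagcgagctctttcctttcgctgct
RPL34: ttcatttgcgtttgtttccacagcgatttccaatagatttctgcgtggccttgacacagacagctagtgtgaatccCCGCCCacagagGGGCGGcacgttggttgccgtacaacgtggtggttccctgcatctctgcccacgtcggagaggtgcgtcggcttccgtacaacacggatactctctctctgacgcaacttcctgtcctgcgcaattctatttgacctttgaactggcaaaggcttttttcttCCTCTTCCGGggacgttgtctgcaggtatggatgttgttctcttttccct
RPS10: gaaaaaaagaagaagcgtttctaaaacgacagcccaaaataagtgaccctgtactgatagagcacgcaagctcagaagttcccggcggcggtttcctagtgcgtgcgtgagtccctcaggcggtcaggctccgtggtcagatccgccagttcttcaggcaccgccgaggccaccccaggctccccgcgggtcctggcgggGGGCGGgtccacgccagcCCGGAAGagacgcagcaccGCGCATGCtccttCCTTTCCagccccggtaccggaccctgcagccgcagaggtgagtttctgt
Counted from the annotated start, RPS21 carries the ETS letters at -134 and -63, and RPS10 at -32. RPL34 has them from base 4 of the transcript, overlapping the TOP run and extending past it. RPL15 shows the GC box and neither an ETS match nor a TOP run at its annotated start. RPL19 has an ETS match and an E-box near the far end of the window.

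Open chromatin at the ends of these genes was near universal. A gene-end peak was present at 77 of 81 ribosomal protein genes with EZH2i (95.1%), 81 with CBPi (100%), 77 with FSK (95.1%) and 80 with vehicle (98.8%). Over all protein-coding genes the shares were 65.2% with EZH2i, 67.3% with CBPi, 65.2% with FSK and 67.6% with vehicle. The members are short genes, with a median length of 5015 bp against 24170.5 bp for all, and their chromosomes are scattered, with 12 genes on chromosome 19 and 8 on chromosome 3. No vehicle peak served 2 members, but 25 of 80 also lay within 1 kb of the end of another protein-coding gene, such as SNAPC5 at RPL4 or MED22 at RPL7A.

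At most members with a known start, the peak lay over it. The peak of largest area, which stands for the gene in all values here, covered the annotated start at 53 of 61 members with EZH2i, 58 of 64 with CBPi, 54 of 61 with FSK and 58 of 64 with vehicle. The vehicle peak was elsewhere for RPL17, RPL27A, RPL35A, RPL4, RPL41 and RPL6. At RPL4 the summit lay 6976 bp downstream of the start, beside the neighbour SNAPC5. At RPL6 it lay at -7682 bp, beside PTPN11, because the start listed first for RPL6 lies inside the annotated gene.

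The members' median summit lay further upstream than that of all genes in each list. The median summit was at -81 bp with EZH2i, -116.5 bp with CBPi, -105.5 bp with FSK and -88.5 bp with vehicle, where a negative value is upstream. Over all genes whose peak covered the start it was -52 bp, -56 bp, -46 bp and -50 bp in the same lists. Peaks of members also reached less far into the gene: the median downstream reach was 461 bp with EZH2i, 537.5 bp with CBPi, 443 bp with FSK and 457 bp with vehicle, against 607, 699, 642 and 687 bp over all genes. Their median upstream reach was shorter as well. It was 451, 533, 437 and 512 bp in the same lists, against 512, 569, 524.5 and 566 bp over all genes. The plot of peaks around the start shows lines that straddle it, with most summits on the upstream side.

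**Figure D1:**
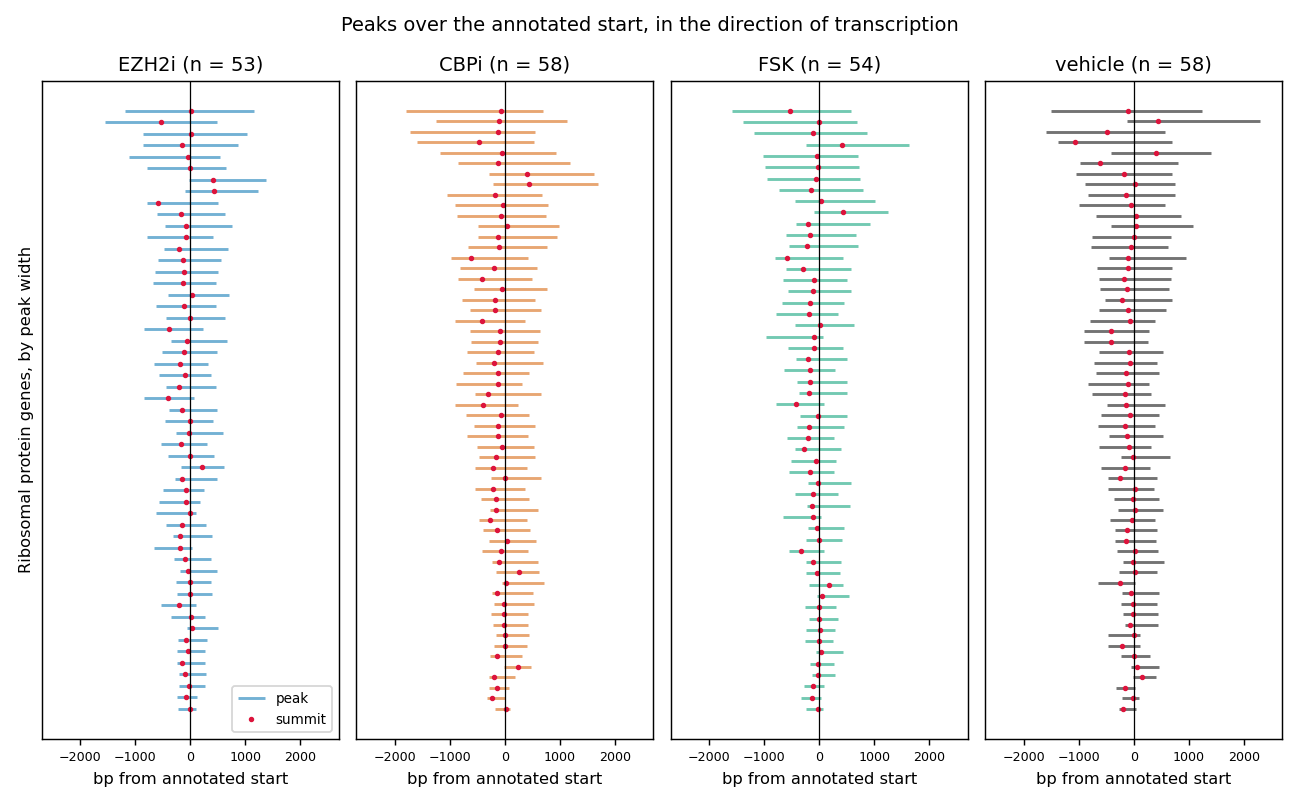
Each line is the peak of 1 ribosomal protein gene that covers its annotated start, from left to right in the direction of transcription, in bp from the start (vertical line). Panels are the EZH2i (53 genes), CBPi (58), FSK (54) and vehicle (58) lists, sorted by width within a panel, and red points are summits, most of them left of the start.

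RPL15 shows how fixed a summit can be while the borders move. This gene of a large-subunit protein had a peak of 1341 bp with EZH2i, 1906 bp with CBPi, 1345 bp with FSK and 2418 bp with vehicle. The summit lay at +432 bp in all 4 lists, and the downstream border at 1237 bp, 1696 bp, 1241 bp and 2299 bp from the start in the same order. The upstream border stayed within 103 to 209 bp of the start, so the difference in width was on the side of the gene body.

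Members were narrower at the median than all genes. The median gene-end peak of the members was 872 bp wide with EZH2i, 1097 bp with CBPi, 872 bp with FSK and 1027 bp with vehicle. Over all genes it was 1136 bp, 1282 bp, 1169 bp and 1257 bp. In the vehicle list the widest peaks were at RPL7 (2940 bp), RPL12 (2736 bp), RPL15 (2418 bp), RPS29 (2163 bp) and RPL7A (2078 bp). All but that of RPL15 also lie at another gene: RDH10 for RPL7, LRSAM1 for RPL12, LRR1 for RPS29 and MED22 for RPL7A. RPL12 lies at the base of the ribosomal stalk. The narrowest were at RPL3 (318 bp), RPS10 (318 bp), RPL10L (344 bp), RPL35A (408 bp) and RPL10 (417 bp). RPL3 reaches towards the peptidyl transferase centre, and RPL10 joins the large subunit late in its assembly.

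**Figure D2:**
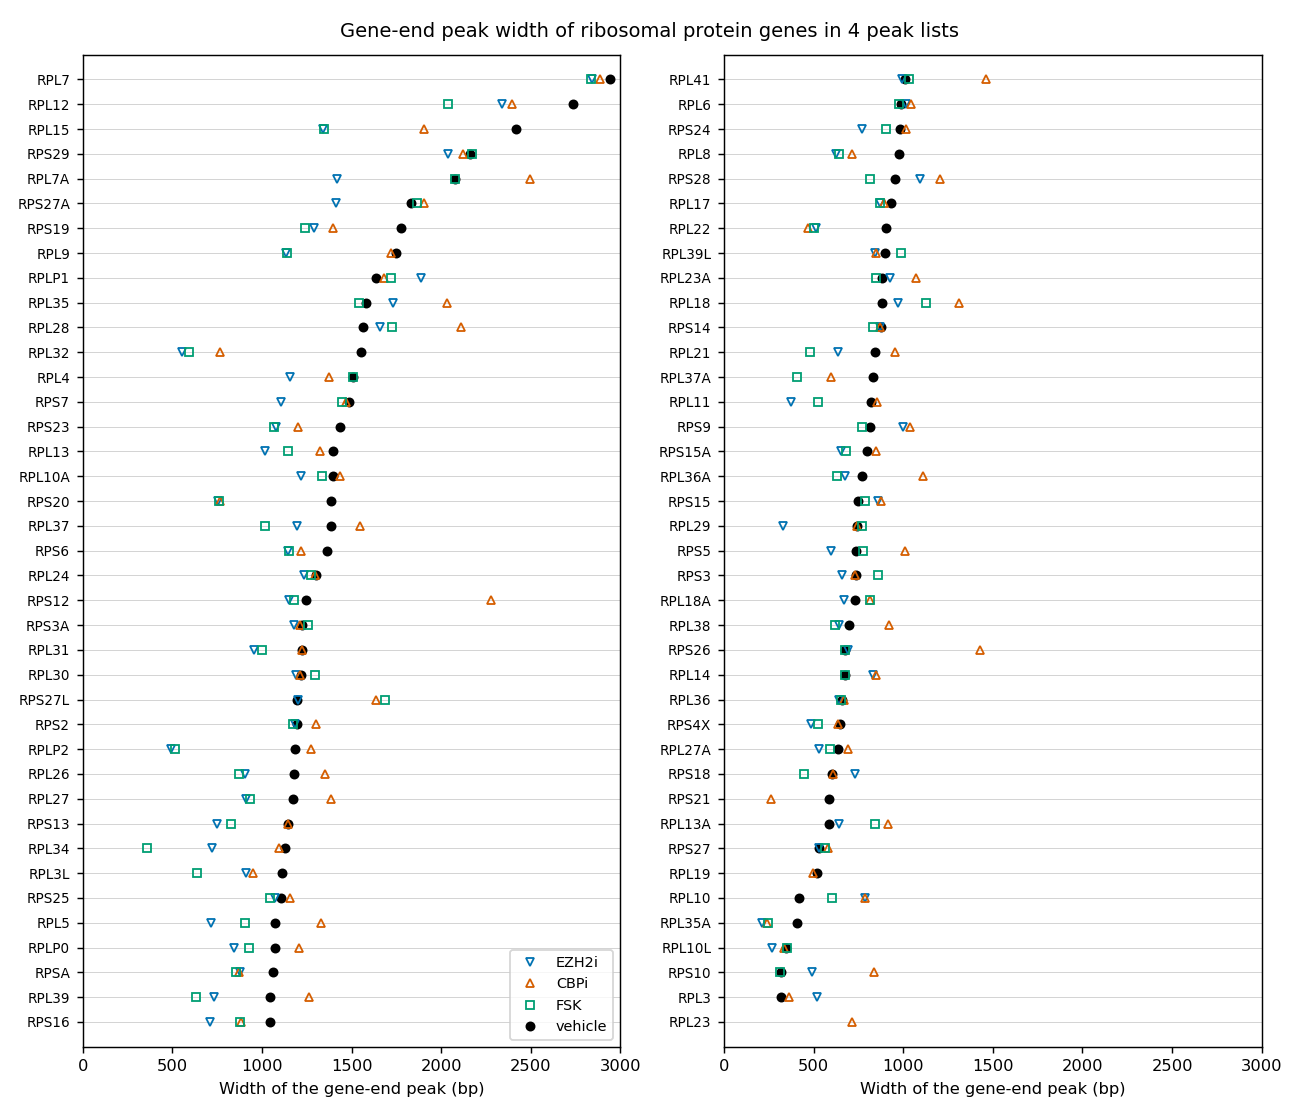
Width in bp of the gene-end peak of ribosomal protein genes, sorted by vehicle width from the top of the left panel to the bottom of the right panel. Symbols are the EZH2i, CBPi, FSK and vehicle lists; a gene with fewer than 4 symbols either has overlapping points or, at RPL19, RPL23, RPL37A, RPS21 and RPL3, lacks a peak in a list.

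Despite their near universal presence, the peaks were not large. Area rank is the percentile of a gene's peak area among the 12568 genes with a gene-end peak in all 4 lists, so that each list ranks the same genes and the median of all is 50.0. The members' median rank was 33.6 with EZH2i, 36.4 with CBPi, 28.0 with FSK and 30.6 with vehicle, over the 76 members in the ranking. Below rank 25 there were 28 members with EZH2i, 27 with CBPi, 32 with FSK and 28 with vehicle, of 76. Above rank 90, where 1 gene in 10 lies by construction, there were 2 with EZH2i, 3 with CBPi, 2 with FSK and 2 with vehicle. Genes no longer than the longest member had median ranks of 43.2, 45.5, 43.1 and 42.1 in the same order of lists, also above those of the members.

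RPL7, RPL15 and RPLP1 held the top 3 ranks among the members in each list. RPL7 ranked at 99.0 with EZH2i, 98.7 with CBPi, 98.7 with FSK and 98.7 with vehicle, on a peak that also lies at RDH10. RPL15 ranked at 92.9 with EZH2i, 93.3 with CBPi, 92.2 with FSK and 95.3 with vehicle. RPLP1, of the acidic stalk that recruits elongation factors, ranked at 89.0, 92.8 and 87.8 with the 3 treatments and 88.4 with vehicle. RPS29 ranked at 81.0 with vehicle. The lowest vehicle ranks were those of RPL35A (1.7), RPS10 (3.2), RPS15 (4.0), RPL10 (4.1) and RPS18 (4.5). RPL35A stayed at 0.1 with EZH2i, 1.1 with CBPi and 2.1 with FSK. The rest of the low end differed between lists. With FSK the lowest member was RPS4X (0.5, against 10.4 with vehicle), followed by RPL21 (2.0, against 10.8 with vehicle). RPL10 ranked at 11.1 with EZH2i, 6.8 with CBPi and 11.1 with FSK, against 4.1 with vehicle.

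**Figure D3:**
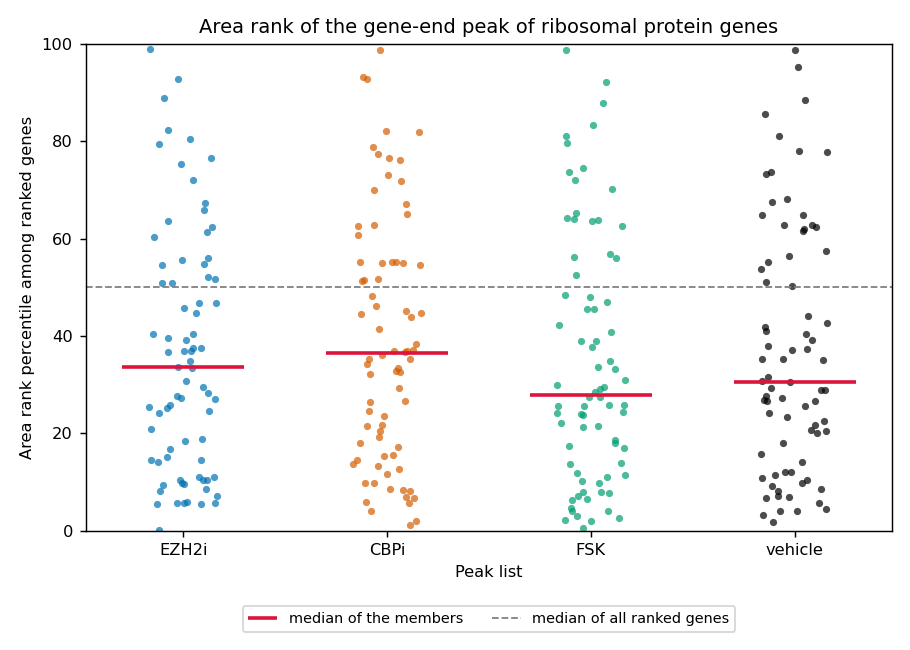
Area rank percentile of the gene-end peak of 76 ribosomal protein genes (points, spread sideways at random) in the EZH2i, CBPi, FSK and vehicle lists. Red bars are the members' medians (33.6, 36.4, 28.0 and 30.6), all under the dashed line at 50, the median of all ranked genes.

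The stalk proteins show that partners in 1 structure need not share a level. RPLP2 ranked at 5.5 with EZH2i, 13.2 with CBPi, 4.0 with FSK and 6.7 with vehicle, and RPLP0 at 40.3, 44.6, 27.5 and 42.6 in the same lists. RPLP1, their partner, was above both in each list. Both RPL5 and RPL11, which with 5S rRNA bind the p53 regulator MDM2, also stood apart from each other. RPL5 ranked at 37.5 with EZH2i, 41.4 with CBPi, 38.9 with FSK and 39.1 with vehicle. RPL11 ranked at 9.8, 19.3, 8.0 and 14.1 in those lists. The vehicle peaks of RPL5 and RPLP2 also lie at DIPK1A and PIDD1, so these ranks may not belong to the 2 genes alone. The vehicle peaks of RPL11, RPLP0 and RPLP1 lie at no other gene.

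All 4 paralogs with the suffix L kept a peak in each list. RPL39L had a peak of 845 bp with EZH2i, 847 bp with CBPi, 986 bp with FSK and 897 bp with vehicle, at a vehicle rank of 68.1. RPS27L, a p53 target, had 1203 bp, 1635 bp, 1684 bp and 1198 bp in the same order, and a vehicle rank of 64.9. RPL10L, a testis paralog of RPL10 without introns, had 268 bp, 334 bp, 354 bp and 344 bp, and a vehicle rank of 9.1. RPL3L, the striated muscle paralog of RPL3, had 912 bp, 950 bp, 640 bp and 1113 bp, but its vehicle peak also lies at MSRB1. A peak within 1 kb of a gene end does not show that the gene is transcribed.

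The first comparison asked which gene-end peaks were in the EZH2i list but not the vehicle list, or the reverse. With EZH2i, 3 of 80 members lacked the peak they had with vehicle (3.75%, Wilson 95% interval 1.28 to 10.5), against 4.6% of all genes. They were RPL19, RPL37A and RPS21. The 1 member without a vehicle peak gained none, against 2.09% of all such genes. With FSK, 3 of 80 members lacked it (3.75%), against 4.94% of all genes, namely RPL19, RPL3 and RPS21, and 0 of 1 was gained, against 2.89%. With CBPi, 0 of 80 were lost (upper Wilson limit 4.58%), against 2.35% of all genes, and 1 of 1 was gained, RPL23, against 3.99%. Counted at either gene end in the lists as deposited, each share of lost peaks was under that of all genes. Counted at the annotated start alone, 3 of 63 members were lost with EZH2i (4.76%, against 3.45% of all genes). With FSK 3 of 63 were lost (4.76%, against 3.8%), and with CBPi 0 of 63 (against 1.8%). All 3 treated lists were shorter than the vehicle list.

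Where the 5 genes concerned had a peak, its area was below the median of all gene-end peaks in that list (2358 with vehicle). RPL19 had an area of 424 with CBPi and 239 with vehicle, in the caller's units of summed significance, whose smallest value in any list is 200. Its nearest other peak was 2263 bp from a gene end with EZH2i and 2052 bp with FSK. RPS21 had an area of 230 and a width of 263 bp with CBPi, against 328 and 588 bp with vehicle. Its nearest peak was 18679 bp away with EZH2i and 18524 bp away with FSK. RPL3 had areas of 230 with EZH2i and 336 with CBPi, against 223 with vehicle. The areas of 223 to 239 lie near the floor of the caller. The areas of 424 and 336 with CBPi and 328 with vehicle were higher. Of the peaks in their lists, 65.5%, 75.7% and 75.4% had a larger area.

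RPL37A had the largest area of the lost peaks, above the median of 581 over all peaks of the vehicle list. It had 522 with CBPi and 327 with FSK, against 710 with vehicle, and widths of 598 bp and 408 bp against 834 bp. With EZH2i the nearest peak was 35909 bp away. RPL23, a binder of MDM2, had a single peak of 714 bp and area 597, in the CBPi list, at chr17:38853435-38854148 over 1 end of the gene. The nearest vehicle peak was 15251 bp away.

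Losses of small peaks were the rule among all genes as well. Genes that lost their gene-end peak with EZH2i had a median vehicle area of 333, and with FSK 359, against 2358 over all genes with a vehicle peak. When each list was shortened to the same number of peaks, 1 of 77 was lost with EZH2i (against 1.76% of all genes) and 1 of 77 with FSK (against 3.60%). With only the larger-area peaks of each list, those above its median, the direction against all genes turned. Of 75 members, 10 were then lost with EZH2i (13.3%, interval 7.41 to 22.8, against 7.59% of all genes), 3 with CBPi (4%, against 2.94%) and 13 with FSK (17.3%, interval 10.4 to 27.4, against 7.15%). How reads mapping to several places were treated, which could matter for genes with many processed pseudogenes, is not given in the sources used here.

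The second comparison asked whether peaks that were present differed in width. With EZH2i the members' peaks were narrower as a group: the median ratio to vehicle was 0.871 (interquartile range 0.749 to 0.998, n = 77), against 0.912 over all genes. Peaks more than 1.25-fold narrower numbered 30 of 77 (39.0%, Wilson 95% interval 28.8 to 50.1), against 25.8% of all genes. Those more than 1.25-fold wider numbered 3 of 77, against 6.32%, namely RPL10, RPL3 and RPS10. Since width ratio moves with vehicle width, the share of all genes was also taken within 4 equal classes of vehicle width, after seeing the data: at those shares 19.7 members would be narrower and 6.40 wider. The interval treats genes as independent and covers counting error only.

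RPL32, RPLP2, RPL29 and RPL11 had the smallest EZH2i ratios. RPL32 had a peak of 554 bp with EZH2i, 768 bp with CBPi and 592 bp with FSK, against 1554 bp with vehicle, and its vehicle peak meets 2 peaks in each treated list. RPLP2 had 490 bp with EZH2i, 1276 bp with CBPi and 515 bp with FSK, against 1183 bp with vehicle. The CBPi and vehicle peaks cover the RPLP2 start, and the vehicle peak also lies at PIDD1. The EZH2i and FSK peaks lie upstream of that start and do not cover it. Both RPL32 and RPLP2 stand out as narrow with EZH2i and FSK, but RPLP2 was not narrow with CBPi. RPL29, a heparin-binding protein gene, had 328 bp with EZH2i, against 741 bp, 772 bp and 740 bp with CBPi, FSK and vehicle. RPL11 had 374 bp with EZH2i, 854 bp with CBPi and 524 bp with FSK, against 819 bp with vehicle. Such splitting of a vehicle peak was seen at 3 of the 30 narrower members with EZH2i, 1 of 9 with CBPi and 2 of 22 with FSK.

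At the wide end, RPL10 had 787 bp with EZH2i, 786 bp with CBPi and 605 bp with FSK, against 417 bp with vehicle, and its EZH2i peak meets 2 vehicle peaks. RPL3 had 518 bp with EZH2i and 361 bp with CBPi, against 318 bp with vehicle. RPS10, a gene mutated in Diamond-Blackfan anaemia, had 494 bp with EZH2i, 839 bp with CBPi and 311 bp with FSK, against 318 bp with vehicle. The CBPi peak of RPS10 reached 607 bp downstream of the start, against 91 bp for the vehicle peak, and 231 bp upstream, against 226 bp.

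With CBPi the members' peaks were as wide as with vehicle or slightly wider. The median ratio was 1.03 (interquartile range 0.959 to 1.21, n = 80), against 1.00 over all genes. Members more than 1.25-fold wider numbered 17 of 80 (21.3%, interval 13.7 to 31.4), against 14.1% of all genes and 17.8% of genes no longer than the longest member, and 9 were narrower (11.3%, interval 6.03 to 20.02), against 9.51%. At the shares of all genes within 4 equal classes of vehicle width, 15.1 would be wider and 7.76 narrower. Of 25 members whose vehicle peak also lies at another gene, 8 were wider and 0 narrower, with a median ratio of 1.08. Of 55 whose peak lies at no other gene, 9 were wider and 9 narrower, with a median ratio of 1.00. This split was made with the widths known and was not tested. Large ratios after RPS10 were at RPS26 and RPL10. RPS26 had 1429 bp with CBPi, against 695 bp with EZH2i, 677 bp with FSK and 678 bp with vehicle; in the CBPi list 1 peak stands where the others have 2.

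A few members were narrower with CBPi. RPS21 (0.447) and RPL32 (0.494) had the smallest ratios to vehicle, followed by RPL22 and RPS20. RPL22 had 513 bp with EZH2i, 470 bp with CBPi and 504 bp with FSK, against 904 bp with vehicle. RPS20 had 753 bp, 766 bp and 760 bp with the 3 treatments, against 1386 bp with vehicle. At both genes the treated lists lie close together, and the vehicle list alone is wide.

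With FSK the members had the median of all genes but a longer narrow side. The median ratio was 0.946 (interquartile range 0.745 to 1.00, n = 77), against 0.940 over all genes, and the lower quartile lay at 0.745, against 0.817 over all genes. Narrower peaks numbered 22 of 77 (28.6%, interval 19.7 to 39.5), against 22.6%, and wider ones 4 (5.19%, interval 2.04 to 12.6), against 7.42%. At the shares within 4 equal classes of vehicle width, 17.8 would be narrower and 7.46 wider. At a fold of 1.5, 14 members were narrower with FSK (18.2%, against 9.73% of all genes) and 12 with EZH2i (15.6%, against 9.96%). RPL34 had the smallest ratio: 361 bp with FSK, against 723 bp with EZH2i, 1097 bp with CBPi and 1129 bp with vehicle. Its FSK peak reached 283 bp upstream and 77 bp downstream of the start, against 681 bp and 447 bp for the vehicle peak, so both sides were shorter. RPL10, RPL13A, RPS27L and RPL18 had the largest FSK ratios, and RPL13A had 642 bp with EZH2i, 913 bp with CBPi and 843 bp with FSK, against 585 bp with vehicle.

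**Figure D4:**
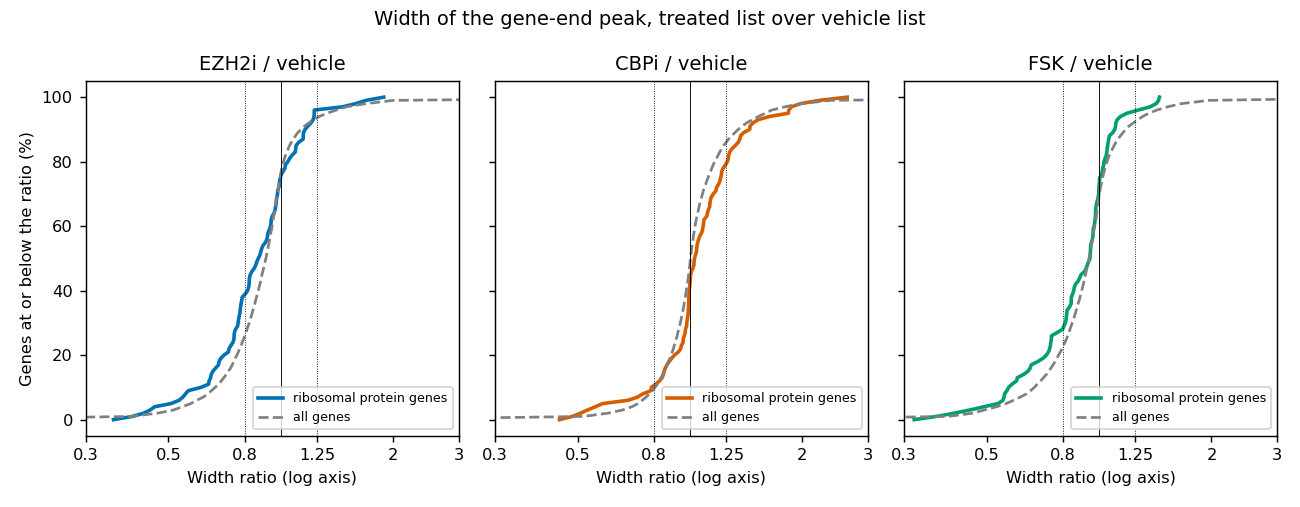
Share of genes (%) at or below each ratio of peak width, treated list over vehicle list, on a log axis; panels are EZH2i, CBPi and FSK. Solid lines are ribosomal protein genes (77, 80 and 77), dashed lines all genes, and dotted verticals mark 1.25-fold either way; below the median the solid line lies to the left of the dashed one with EZH2i and with FSK (10th percentile 0.611 against 0.667, and 0.572 against 0.671), and above the median it lies to the right with CBPi.

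Taking the 76 members with a peak in each list, CBPi gave the widest peak at 39 (51.3%, against 38.9% of all genes), EZH2i at 4 (5.26%, against 8.30%), FSK at 9 (11.8%, against 14.5%) and vehicle at 23 (30.3%, against 37.6%). EZH2i gave the narrowest peak at 39 (51.3%, against 45.3% of all genes), CBPi at 2 (2.63%, against 9.91%), FSK at 26 (34.2%, against 32.4%) and vehicle at 8 (10.5%, against 11.7%). The order of lists at these genes was that of all genes. By neighbour, narrower with EZH2i were 6 of 25 members whose vehicle peak also lies at another gene (24%) and 24 of 52 whose peak does not (46.2%). Of the large-subunit genes 21 of 46 were narrower with EZH2i (45.7%), and of the small-subunit genes 9 of 31 (29.0%). The share of all genes was 25.8%. With FSK the subunit counts were 17 of 46 (37.0%) and 5 of 31 (16.1%), against 22.6% of all genes. Neither split was tested, and both were made with the widths known.

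The third comparison asked whether members changed place among all genes by area. The median shift in rank, treated minus vehicle, was -1.56 points with EZH2i, 1.87 points with CBPi and -1.75 points with FSK, and within 0.06 points of 0 over all genes. With EZH2i, 9 of 76 members were lower by over 10 points, against 8.85% of all genes, and 7 were higher, against 8.2%. With CBPi, 5 were lower, against 12.3%, and 12 were higher, against 11.6%. With FSK, 8 were lower, against 8.18%, and 3 were higher, against 7.85%. As shares these are 11.8% and 9.21% with EZH2i, 6.58% and 15.8% with CBPi, and 10.5% and 3.95% with FSK, whose Wilson intervals all include the shares of all genes. Genes no longer than the longest member had a median CBPi shift of 1.66 points, with 16.5% higher and 8.28% lower, close to the members' values.

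RPL32 was the member with the largest shift downward under each treatment. It ranked at 11.1 with EZH2i, 11.6 with CBPi and 9.7 with FSK, against 30.7 with vehicle, where its peak is not split. RPL9 ranked at 40.5 with EZH2i, 51.3 with CBPi and 39.0 with FSK, against 57.4 with vehicle. It too is split into 2 peaks with EZH2i and FSK. RPS7 ranked at 25.3 with EZH2i, 38.4 with CBPi and 34.8 with FSK, against 44.1 with vehicle. RPS20 ranked at 45.2 with CBPi and RPL39L at 55.3, against 62.3 and 68.1 with vehicle. RPL34 ranked at 6.5 and RPLP0 at 27.5 with FSK, against 23.4 and 42.6 with vehicle.

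RPS12 showed the largest upward shift. It ranked at 54.8 with EZH2i, 70.0 with CBPi and 47.0 with FSK, against 41.1 with vehicle, and its peak was 2280 bp wide with CBPi, against 1244 bp with vehicle, where 2 peaks stand. In Drosophila RpS12 takes part in the recognition of cells that lack other ribosomal proteins. RPL28 ranked at 61.3 with EZH2i, 62.5 with CBPi and 42.2 with FSK, against 41.9 with vehicle. RPL18 ranked at 46.8 with EZH2i, 54.9 with CBPi and 48.1 with FSK, against 37.4 with vehicle. RPS26 ranked at 51.6 with CBPi, against 35.2 with vehicle. With FSK the largest upward shifts were at RPL36 (17.0, against 5.6 with vehicle), RPL18 and RPL41 (64.0, against 53.8 with vehicle).

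Other genes of translation give the setting. The 77 mitochondrial ribosomal protein genes, which build the ribosome of another compartment, had a median width of 902.5 bp with EZH2i, 1071 bp with CBPi, 973 bp with FSK and 1100 bp with vehicle, close to the cytosolic ones. Their median ranks were 34.3, 36.8, 34.0 and 36.3 in the same lists. Narrower than 1.25-fold were 23 of 72 with EZH2i (31.9%), 5 of 75 with CBPi (6.67%) and 22 of 72 with FSK (30.6%). The shares of all genes were 25.8%, 9.51% and 22.6%. Lost peaks were at MRPL20, MRPL35 and MRPL45 with EZH2i and at MRPL20, MRPL35 and MRPS10 with FSK, and none was lost with CBPi. A low rank, narrow width and loss of a few peaks were thus seen in both ribosomal gene sets.

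Ribosome biogenesis genes had wider and higher-ranked peaks than the ribosomal protein genes. Their median vehicle width was 1222 bp and their median vehicle rank 45.8. Narrower than 1.25-fold were 15 of 38 with EZH2i, 1 of 39 with CBPi and 16 of 38 with FSK, and the only lost peak, with EZH2i and with FSK, was at WDR12, of the complex that processes large-subunit rRNA. Genes of translation and other TOP mRNAs had a peak at 21 of 21 in each list, with 6, 1 and 4 narrower under EZH2i, CBPi and FSK. Initiation and elongation factor genes had 6 of 24, 3 of 24 and 6 of 24 narrower. None of these lists was tested against another.

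**Figure D5:**
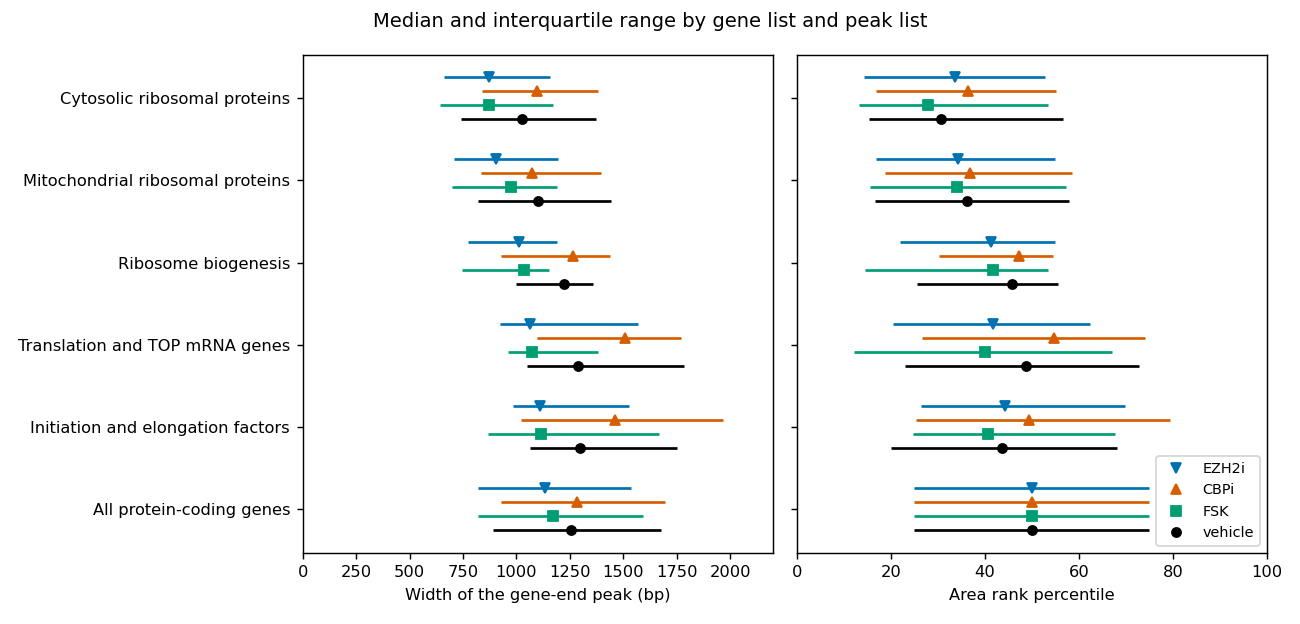
Medians (symbols) and interquartile ranges (lines) of gene-end peak width in bp (left) and area rank percentile (right), by gene list and, within a gene list, for EZH2i, CBPi, FSK and vehicle from top to bottom. Cytosolic and mitochondrial ribosomal protein genes have the lowest medians of the 6 rows in both panels.

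Motif content and width ratio are given side by side as description. Of the 22 members with the ETS letters, 2 had no EZH2i peak, and the rest had a median EZH2i ratio of 0.832. Of the 42 without the letters, 1 had no EZH2i peak, and the rest had a median of 0.871. The 6 genes with the BANP letters had a median vehicle rank of 59.1, and the others 28.9, but at RPL17, RPL27A and RPL4 the ranked peak lies at the other gene end, 5162, 6287 and 6976 bp from the start that holds the letters. The 6 with the YY1 letters had a median vehicle rank of 11.1, and the others 33.3. These sets are small and the differences were not tested. The BANP letters are at RPL17, RPL26, RPL27A, RPL4, RPS19 and RPS6, and the YY1 letters at RPL13A, RPL21, RPL24, RPL35A, RPS28 and RPS3. The 3 genes with a full cAMP response element had no common direction with FSK: RPL3 had no FSK peak, RPLP2 had 515 bp, against 1183 bp with vehicle, and RPL18 had 1128 bp, against 883 bp with vehicle. The FSK peak of RPLP2 lies upstream of its start, which the vehicle peak covers.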

How the data were processed

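The files were 4 peak lists in narrowPeak form, 1 for each group of 2 libraries. Per the submitters' processing notes the build was hg38 and the tools named were Bowtie2, Genrich and deepTools 2.0; their roles and settings, the Tn5 shift and the way 2 libraries became 1 list are not stated in the labels or headers. The authors' signal is the area of significance under each peak. The authors' −log10 of the summit p-value was deposited beside it and was not used for a comparison. Areas were ranked within a list only, since depth is unknown. Coordinates and symbols came from a RefSeq table of GRCh38.p14, and strand from its promoter table.

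A gene-end peak overlapped, by at least 1 bp, the 1 kb either side of a gene end; the peak of largest area stood for the gene. Lost and gained describe presence in the lists. Folds of 1.25 and shifts of 10 points took the place of a test, since with 1 list per group there is none; shares carry Wilson 95% intervals. Named genes were the members lacking a peak in a list, the extremes of vehicle width and rank, the 4 largest and smallest width ratios and rank shifts per treatment, and the L paralogs; the partners RPL5, RPLP0 and RPLP1 and other genes named for their role were added afterwards. The members and lists were chosen with earlier results of these data known. Of 143 listed symbols 140 matched. A few genes that the rule would name, and their points in the plot of widths, are not reported here. Python 3.11.15, pandas 2.3.3, numpy 2.4.6 and scipy 1.17.1 were used, and the steps were checked on simulated peak lists. Alternatives changed the window, the list length, the threshold, the standing peak and the members.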

Additional observations from a re-analysis of the deposited data

How the results depend on the processing

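No paired analysis was possible because each deposited list already joins the 2 libraries of its group, and for the same reason no library could be left out. Of the alternative values, 200 stayed within 1.5 times the reported count or within the interval of the reported median, and 20 did not. They include the counts of members with a gene-end peak in each list, which are not comparisons and had little room to move. This count looks at the members' values alone, not at the shares of all genes beside them. Median width ratios ranged over 0.861 to 0.886 with EZH2i, 1.02 to 1.04 with CBPi and 0.890 to 0.963 with FSK, and median rank shifts over -1.57 to -1.13, 1.45 to 2.55 and -2.27 to -1.05 points. At a fold of 1.5, narrower members numbered 12 with EZH2i (against 9.96% of all genes), 5 with CBPi (3.20%) and 14 with FSK (9.73%), and wider ones 6 with CBPi (6.41%) and 0 with FSK (3.18%). At 20 points of rank, 0 members were lower (1.44%) and 0 higher (1.62%) with EZH2i, 0 lower (2.70%) and 2 higher (2.50%) with CBPi, and 1 lower (1.42%) and 0 higher (1.5%) with FSK. With lists of equal length, 1 of 77 was lost (1.76%) and 1 of 4 gained (5.57%) with EZH2i, 3 of 4 were gained with CBPi (7.62%) and 1 of 77 was lost with FSK (3.60%). Counted at the annotated start alone in the full lists, 3 of 63 were lost with EZH2i (4.76%, against 3.45%) and 3 of 63 with FSK (4.76%, against 3.8%). With the larger-area part of each list, 10 of 75 were lost with EZH2i (13.3%, against 7.59% of all genes), 3 with CBPi (4%, against 2.94%) and 13 with FSK (17.3%, against 7.15%). Members were then lost at a larger share than all genes, where in the full lists, counted at either gene end, their share was smaller. Under that setting 1 of 65 was wider with EZH2i (5.27%) and 13 of 62 were narrower with FSK, close to the share among all genes. Fewer peaks enter with lists of equal length or with the larger-area part, and higher thresholds call fewer genes by construction. Other causes were not tested. Without read depth, a lost peak cannot be told apart from one just under the caller's threshold.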
